A study of Mus musculus with 6 samples.

Results

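The genes described here encode the core of PARP-dependent single-strand break repair and of base excision repair: Parp1, Xrcc1, Lig3, Polb, Aptx, Aplf, Parg, Adprhl2 and Apex1. They were taken by symbol from the deposited count table. All 9 were among its 29721 genes, and all 9 were among the 17652 genes that passed the count filter and were tested. RNA was sequenced from the pancreas of 6 Ela-myc mice aged 3 months, 3 wild type (WT) for Parp2 and 3 labelled PARP2 KO, each library from a different animal. In both groups a Myc transgene was driven by the elastase promoter, that of acinar cells, the enzyme-secreting cells of the gland, and such mice form pancreatic tumours. The series asked what PARP2 does in the growth of these tumours. The labels give neither the Parp2 allele nor whether a piece held tumour, and the extraction protocol speaks of tumour samples where the tissue label says pancreas.

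When a base is damaged, a DNA glycosylase removes it, the nuclease encoded by Apex1 cuts the strand at the empty site, DNA polymerase beta fills the gap and a ligase closes the nick. PARP1 and PARP2 bind such nicks and build chains of ADP-ribose on themselves and on chromatin. The chains draw in XRCC1, a scaffold that holds DNA ligase III, polymerase beta and the end-processing enzymes. Poly(ADP-ribose) glycohydrolase and the hydrolase encoded by Adprhl2 then take the chains down.

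Libraries held between 28105021 and 32055565 counts, of which 11785 to 15272 fell on the 9 genes. Levels are given in CPM, counts relative to the TMM-scaled size of each library. Parp2 stood at 14.4, 12.4 and 13.6 CPM in knockout replicates 1, 2 and 3 and at 40.5, 36.4 and 37.5 CPM in the wild-type ones, so reads still mapped to the gene. The libraries also differed in cell type markers. The summed level of 13 acinar marker genes lay between 204700 and 300200 CPM in wild type but was 29350, 116700 and 126 CPM in knockout replicates 1, 2 and 3, so that the labelled pancreas was almost without acinar markers in the last. Of these 13 genes 12 were lower in every knockout library than in any wild-type one, but 0 of 13 passed edgeR's test, also 0 at an unadjusted p under 0.05, while the DESeq2 Wald test called 2 and each limma fit 0. Summed T cell, B cell and fat cell markers (6 genes each, every one higher) lay at 39.3 to 109.6, 116 to 323 and 275 to 697 CPM in wild type and at 274 to 627, 1105 to 1642 and 4212 to 5092 CPM in knockout. None of these markers was at 0 in every library. Of 15 proliferation genes 13 fell, with sums of 1360 to 1551 and 679 to 825 CPM. Of smaller marker lists, all 5 endothelial genes rose, and of 5 macrophage genes 1 rose and 1 fell. Called lower were 3 of 5 duct, 3 of 5 fibroblast and 1 of 6 islet genes. Islet sums were 224, 557 and 1.34 CPM for knockout replicates 1, 2 and 3, with no wild-type library under 1276 CPM. Duct sums were 34.0, 93.3 and 11.2 CPM for the same replicates, with no wild-type library under 201.9 CPM. The genotypes did not overlap for 5 of 5 duct and 4 of 6 islet genes, all lower with the knockout. Of all tested genes, 33.7% were lower with the knockout without overlap. By the test given below 25.0% were called lower and 28.0% higher. The part of these marker shifts in the results below was not tested. A fit with acinar level as a term was run. Acinar sums did not overlap between the genotypes, so a call that held or ended in that fit cannot tell acinar level from genotype. In such tissue RNA, fewer cells of a type and less RNA per cell cannot be told apart.

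Of the 9 genes, 5 fell in the knockout, 1 rose and 3 did not pass the test, although scaling by library totals ended 3 of the falls, those of Xrcc1, Aplf and Parp1, and turned the sign of Parp1. Apex1, which encodes the main apurinic/apyrimidinic endonuclease, fell most, to 41.8% of the wild-type mean. The ligase gene Lig3, the break-binding factor gene Aplf, the scaffold gene Xrcc1 and Parp1 itself fell to between 62.3% and 81.4%. Aptx, which encodes the enzyme that clears abortive ligation products, rose to 136%. The polymerase gene Polb and the 2 eraser genes, Parg and Adprhl2, stood at 101%, 112% and 98.3% of wild type. A gene was called when its adjusted p from edgeR's quasi-likelihood test (Benjamini-Hochberg over all tested genes) was under 0.05. By that rule 53.0% of all tested genes were called, 28.0% higher and 25.0% lower in knockout. With so large a background, 6 called genes of 9 is not a result about these genes. The median log2 fold change, knockout minus wild type, was -0.30 for the 9 genes and 0.02 for all tested genes. The same 6 genes had groups that did not overlap in CPM. Among all tested genes the groups did not overlap for 68.1%, with the knockout higher for 34.4% and lower for 33.7%.

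**Figure D1:**
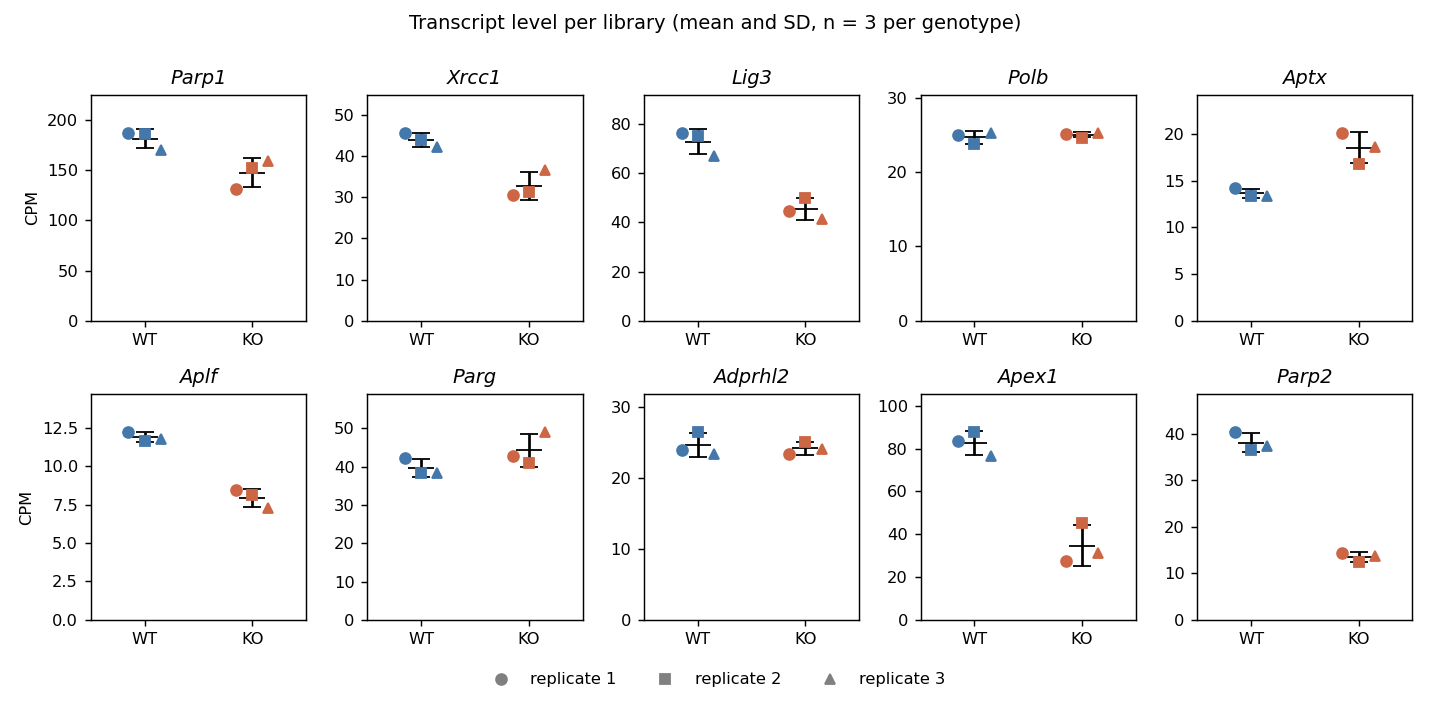
Transcript level in CPM (y axis of each panel, from 0) in each library of the 9 genes and Parp2, by genotype, with the mean and SD of 3 libraries in black and replicates 1 to 3 as circles, squares and triangles. Wild-type and knockout points do not overlap for Apex1, Lig3, Aplf, Xrcc1, Parp1, Aptx and Parp2 and overlap for Polb, Parg and Adprhl2.

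Parp1 encodes the enzyme that makes most of the ADP-ribose chains at breaks, and it is the closest functional partner of PARP2. The gene (ENSMUSG00000026496) lies on chromosome 1 at 180568924 to 180601254 (GRCm38, plus strand). Wild-type replicates 1 to 3 held 187.5, 186 and 170.4 CPM, and knockout replicates 1 to 3 held 132, 152 and 159 CPM. The lowest wild-type library stood above the highest knockout library, but by less than the range within either genotype. The means were 181 ± 9.53 and 148 ± 14.1 CPM (SD, n = 3 each), and the log2 fold change was -0.30 ± 0.101 (SE; edgeR adjusted p = 0.0469). That call is the weakest of the 6: leaving out knockout replicate 2 kept it, and leaving out any of the other 5 libraries ended it (edgeR adjusted p = 0.0547 to 0.127). It also ended with sex or acinar level as a term and without a count filter, with edgeR adjusted p of 0.0867, 0.0864 and 0.0778. With library totals as scaling the difference was 0.11 (edgeR adjusted p = 0.476). Under no setting tried did Parp1 pass the test as higher in the knockout.

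The promoter of Parp1 is shown because it holds an E-box, the hexamer CACGTG that Myc and related factors bind. The window is that of RefSeq (GRCm38.p6), 250 bases before to 50 bases after the start site, here chr1:180568641-180568940 on the plus strand, written 5′ to 3′. Capitals mark the E-box, at bases -49 to -44 counted from the start site.
Parp1: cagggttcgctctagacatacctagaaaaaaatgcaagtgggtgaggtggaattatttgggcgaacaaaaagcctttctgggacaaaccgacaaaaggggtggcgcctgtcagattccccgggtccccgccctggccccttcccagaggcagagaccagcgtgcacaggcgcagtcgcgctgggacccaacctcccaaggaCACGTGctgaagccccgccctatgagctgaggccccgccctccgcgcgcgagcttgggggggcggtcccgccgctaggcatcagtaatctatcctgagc

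Xrcc1 encodes the scaffold without enzymatic activity on which short-patch repair is assembled (ENSMUSG00000051768, chromosome 7, 24546289 to 24573440, plus strand). Wild-type libraries held 45.7, 43.9 and 42.2 CPM and knockout libraries 30.5, 31.1 and 36.7 CPM. The wild-type libraries lay close together. Knockout replicate 3 was nearest to wild type, and the gap between the groups was smaller than the range within the knockout. The means were 43.9 ± 1.72 and 32.8 ± 3.42 CPM (SD, n = 3 each), with log2 difference -0.42 ± 0.100 (SE; edgeR adjusted p = 0.0145). The call ended at the margin without knockout replicate 1 (edgeR adjusted p = 0.0501), and with library totals as scaling, where the difference was -0.01 (adjusted p = 0.935).

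Lig3 encodes DNA ligase III, the ligase that XRCC1 carries and that also serves mitochondria (ENSMUSG00000020697, chromosome 11, 82781108 to 82804274, plus strand). Wild-type libraries held 76.6, 75.1 and 67.1 CPM and knockout libraries 44.7, 50.1 and 41.5 CPM. Every knockout library was well below every wild-type library. The means were 72.9 ± 5.08 and 45.5 ± 4.36 CPM (SD, n = 3 each), with log2 difference -0.68 ± 0.102 (SE; edgeR adjusted p = 0.00375). The call held in all 15 alternatives run at the 0.05 threshold, with log2 fold changes from -0.76 to -0.28. The end of Rffl, on the opposite strand, covers 25.1% of the Lig3 exon length, and the strand setting of the counting is not given in the sources used here. Rffl averaged 28.4 ± 3.58 CPM without and 28.8 ± 3.06 CPM with the knockout (SD, n = 3 each; log2 fold change 0.02, edgeR adjusted p = 0.89). The Lig3 window, chr11:82780859-82781158 on the plus strand, is shown for its E-box, in capitals at bases -21 to -16.
Lig3: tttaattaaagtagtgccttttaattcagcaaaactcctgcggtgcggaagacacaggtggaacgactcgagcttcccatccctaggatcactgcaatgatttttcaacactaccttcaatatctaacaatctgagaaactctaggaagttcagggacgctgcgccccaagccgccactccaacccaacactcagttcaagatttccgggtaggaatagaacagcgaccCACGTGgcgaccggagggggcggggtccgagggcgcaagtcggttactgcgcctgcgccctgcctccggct

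Within a library the ratio of Xrcc1 to Lig3, in CPM per kilobase of exon, does not depend on scaling. It was 0.745, 0.730 and 0.786 in wild type and 0.853, 0.776 and 1.10 in knockout. The groups overlapped, and the difference missed the test (log2 difference 0.26, two-sided exact permutation p = 0.20 with n = 3 each, the smallest possible being 0.10). Without knockout replicate 3 it was 0.11. Such ratios were formed for 5 pairs chosen after the values had been seen. With Benjamini-Hochberg adjustment over the 5, none could go below 0.10.

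Polb encodes DNA polymerase beta, which fills the gap of a single base (ENSMUSG00000031536, chromosome 8, 22628126 to 22653435, minus strand). Wild-type libraries held 25.1, 23.7 and 25.2 CPM and knockout libraries 25.1, 24.6 and 25.3 CPM. The knockout libraries fell inside the range of wild type apart from the highest, which exceeded it by less than the wild-type SD. The means were 24.7 ± 0.815 and 25.0 ± 0.340 CPM (SD, n = 3 each). The log2 fold change was 0.02 with a 95% interval of -0.17 to 0.21 (SE 0.0767, edgeR adjusted p = 0.834). Polb had the narrowest interval of the 9 genes, and the log2 fold changes of all 6 called genes lie outside it.

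Apex1 encodes the endonuclease that cuts the strand beside a lost base and that also acts as a redox factor (ENSMUSG00000035960, chromosome 14, 50924968 to 50927139, plus strand). Wild-type libraries held 83.7, 87.8 and 76.5 CPM and knockout libraries 27.3, 45.4 and 31.1 CPM. All 3 knockout libraries were far below wild type, and knockout replicate 2 was the highest of them. Acinar markers were likewise highest in replicate 2, at 116700 CPM, but lowest in replicate 3 (126 CPM), whereas Apex1 was lowest in replicate 1. Any link between acinar and Apex1 levels was not tested by this order. The Apex1 means were 82.7 ± 5.72 and 34.6 ± 9.56 CPM (SD, n = 3 each), with log2 difference -1.26 ± 0.198 (SE; edgeR adjusted p = 0.00432). The call held in all 15 alternatives at that threshold, with log2 fold changes from -1.51 to -0.87, and with acinar level as a term too.

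Apex1 lies 103.7 kb from Parp2 on the same chromosome, and no other of the 9 genes is near it, Parg being 18510.3 kb away. Of the 4 genes between Parp2 and Apex1, all tested, 2 rose and 1 fell, with log2 fold changes from -1.78 to 1.56. The start of Osgep, which encodes a tRNA-modifying enzyme, lies 75 bp from that of Apex1 on the opposite strand. Osgep stood at 21.8, 22.1 and 21.4 CPM in the wild-type libraries and overlapped with the knockout at 20.4, 20.9 and 22.5 CPM (edgeR adjusted p = 0.731). On the other side, exons of Pip4p1, a phosphoinositide phosphatase gene on the opposite strand, cover 877 bp or 61.7% of the Apex1 exon length, so without strand the reads of the pair cannot be told apart. Pip4p1 rose, from 35.4 ± 2.29 to 48.3 ± 1.51 CPM (SD, n = 3 each), a log2 difference of 0.45 ± 0.083 (SE; edgeR adjusted p = 0.00655), opposite to Apex1. The part that nearness to the altered Parp2 allele has in these values was not tested.

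The Apex1 promoter is shown because it holds 3 E-boxes, in capitals, at bases -24 to -19, 1 to 6 and 22 to 27. The window is chr14:50924699-50924998 on the plus strand.
Apex1: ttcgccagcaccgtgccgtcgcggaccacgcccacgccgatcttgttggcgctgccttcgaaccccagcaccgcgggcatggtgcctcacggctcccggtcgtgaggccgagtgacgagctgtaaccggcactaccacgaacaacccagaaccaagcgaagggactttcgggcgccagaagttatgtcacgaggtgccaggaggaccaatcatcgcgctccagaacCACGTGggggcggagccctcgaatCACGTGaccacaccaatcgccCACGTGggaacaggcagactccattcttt

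At least 1 E-box stood in 7.2% of 27025 mouse promoter windows of this length, counting 1 window a gene, and at least 3 in 0.089%. Windows were found for 8 of the 9 genes, all but Polb. That of Xrcc1, chr7:24546449-24546748, lies inside its gene model and does not cover the model's start at 24546289. The 3 genes with an E-box, Apex1, Lig3 and Parp1, all fell. Of the 5 without, Xrcc1 and Aplf fell, Aptx rose, and Parg and Adprhl2 did not pass. In the other lists Parp2, Fen1 and Lig1 had an E-box and fell, that of Fen1 outside its first window. Tdg, Rfc1, Adprhl1 and Macrod1 had one and were not called. The shares over all genes count only the first window of each gene. Across all tested genes with a window, 30.2% of the 1200 with an E-box and 26.5% of the 11289 without were called lower, and 24.4% and 28.5% were called higher. Of the 126 with 2 or more E-boxes 27.8% were called lower and 26.2% higher, and of the 17 with 3 or more 29.4% and 11.8%. The differences between these shares were not tested, and a match to a hexamer is a description of the letters, not of binding.

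**Figure D2:**
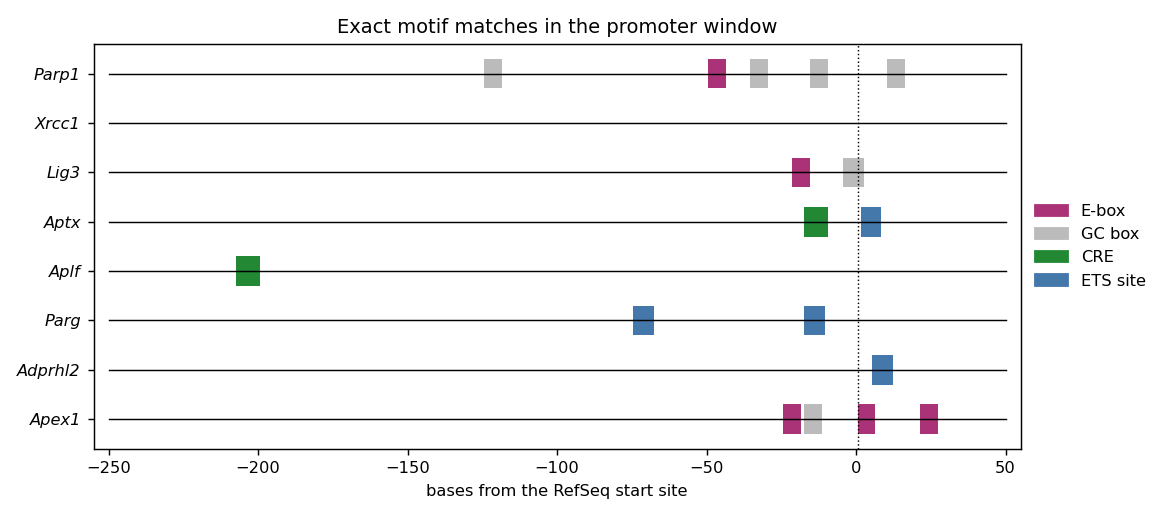
Exact motif matches in the first RefSeq promoter window of the 8 genes that had one, with bases from the start site on the x axis and coloured boxes for each motif. Apex1 shows 3 E-boxes around its start, and Parp1 and Lig3 show 1 each. Xrcc1, whose window lies inside its gene model, shows no match to any motif searched.

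The other motifs searched, all on both strands and without regard to overlaps, were the GC box GGGCGG, the cAMP response element TGACGTCA and the ETS site CCGGAAG. They stood in 35.9%, 1.9% and 9.1% of all windows. Among the 9 genes the ETS letters stood in the windows of Aptx, Parg and Adprhl2, none of which fell, and in none of the 5 that fell. The other lists did not share that split. There the letters stood in windows of Ogg1, Nthl1, Tdp1, Pold3, Rfc4 and Rfc5, which fell. They also stood in windows of Mpg, Rfc3, Hpf1 and Nmnat1, which were not called. With so few genes this is a description only.

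Aptx encodes aprataxin, which removes the AMP left on a DNA end by a failed ligation and binds XRCC1 (ENSMUSG00000028411, chromosome 4, 40682382 to 40703194, minus strand). Wild-type libraries held 14.2, 13.3 and 13.4 CPM and knockout libraries 20.1, 16.8 and 18.6 CPM. The groups did not overlap, with the smallest rise in knockout replicate 2. The means were 13.6 ± 0.498 and 18.5 ± 1.67 CPM (SD, n = 3 each), with log2 difference 0.44 ± 0.107 (SE; edgeR adjusted p = 0.0158). The call ended without wild-type replicate 2 and with acinar level as a term (edgeR adjusted p = 0.0585 and 0.0843), at log2 fold changes of 0.42 and 0.41. The first window of Aptx, the gene that rose, is chr4:40703145-40703444 on the minus strand. Capitals mark the cAMP response element at bases -17 to -10 and the ETS site at bases 2 to 8. A cAMP response element also stood in the windows of Aplf, which fell (bases -207 to -200), and of Tdg, which was not called.
Aptx: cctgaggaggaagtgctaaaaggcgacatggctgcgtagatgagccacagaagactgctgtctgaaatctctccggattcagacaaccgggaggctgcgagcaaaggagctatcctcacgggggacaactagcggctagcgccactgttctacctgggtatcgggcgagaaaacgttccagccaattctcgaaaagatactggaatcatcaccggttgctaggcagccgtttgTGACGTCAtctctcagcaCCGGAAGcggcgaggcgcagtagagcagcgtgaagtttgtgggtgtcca

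Aplf encodes a factor that binds ADP-ribose chains through zinc fingers and links them to XRCC1 and to end joining (ENSMUSG00000030051, chromosome 6, 87628424 to 87672193, minus strand). Wild-type libraries held 12.2, 11.7 and 11.8 CPM and knockout libraries 8.44, 8.14 and 7.30 CPM. Each genotype was tight, and the groups were well apart. The means were 11.9 ± 0.310 and 7.96 ± 0.590 CPM (SD, n = 3 each), with log2 difference -0.58 ± 0.121 (SE; edgeR adjusted p = 0.00962). With acinar level as a term the call ended at nearly the same size (-0.49, edgeR adjusted p = 0.0662), and with library totals as scaling at -0.18 (adjusted p = 0.357). Aptx and Aplf share a forkhead-associated domain of one family, through which both bind phosphorylated XRCC1, and they moved in opposite directions.

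The erasers showed no call in either direction. Parg encodes the glycohydrolase that degrades the chains (ENSMUSG00000021911, chromosome 14, 32201949 to 32297550, plus strand). Wild-type libraries held 42.3, 38.2 and 38.2 CPM and knockout libraries 42.7, 40.8 and 49.1 CPM, with overlapping groups and the highest value in knockout replicate 3. The log2 fold change was 0.16 with a 95% interval of -0.08 to 0.40 (edgeR adjusted p = 0.214). Adprhl2 encodes the hydrolase that removes the last ADP-ribose from serine (ENSMUSG00000042558, chromosome 4, 126316047 to 126321703, minus strand). Wild-type libraries held 23.9, 26.5 and 23.3 CPM and knockout libraries 23.4, 25.1 and 24.0 CPM, so the knockout lay within the wild-type range. The log2 fold change was -0.02 with a 95% interval of -0.24 to 0.19 (edgeR adjusted p = 0.833).

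Writer and eraser can be set against each other within a library, in CPM per kilobase. The Parp1 to Parg ratio was 4.84, 5.32 and 4.87 in wild type and 3.37, 4.08 and 3.53 in knockout, lower in all 3 knockout libraries (exact permutation p = 0.10, two-sided, with n = 3 each, which is the lowest possible; adjusted p = 0.125 over the 5 pairs). The Parp1 to Parp2 ratio was 3.17, 3.5 and 3.11 in wild type and 6.27, 8.42 and 7.98 in knockout, with Parp2 at 35.4% and Parp1 at 81.4% of the wild-type mean. For consecutive steps of repair, the Apex1 to Polb ratio went from 9.31 ± 0.926 to 3.84 ± 1.11, and Apex1 to Parp1 from 1.70 ± 0.0513 to 0.870 ± 0.208 (SD, n = 3 each), with the same exact permutation p = 0.10.

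Levels of different genes were compared per kilobase of the merged exons of GENCODE vM21, which lowers genes with many annotated isoforms. Of that length 61.7% is shared with Pip4p1 for Apex1 and 25.1% with Rffl for Lig3. The levels, places and ratios of Apex1 and Lig3 therefore depend on how reads there were counted, which is not given. In wild type the order was Apex1 at 58.1 ± 4.02, Parp1 at 34.3 ± 1.80, Lig3 at 10.01 ± 0.697, Adprhl2 at 9.92 ± 0.681, Xrcc1 at 7.53 ± 0.295, Parg at 6.85 ± 0.406, Polb at 6.26 ± 0.207, Aptx at 2.32 ± 0.0845 and Aplf at 2.01 ± 0.0524 CPM per kilobase (SD, n = 3). The neighbours Lig3 and Adprhl2, and Xrcc1 and Parg, overlapped. In knockout Parp1 came first at 27.9 ± 2.67 and Apex1 next at 24.3 ± 6.72 CPM per kilobase, and the pair overlapped. Adprhl2 and Parg followed, and Polb, Lig3 and Xrcc1 formed a run in which each overlapped the next, at 6.35 ± 0.0862, 6.24 ± 0.599 and 5.62 ± 0.587 CPM per kilobase. Aptx and Aplf kept the lowest places in both genotypes.

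**Figure D3:**
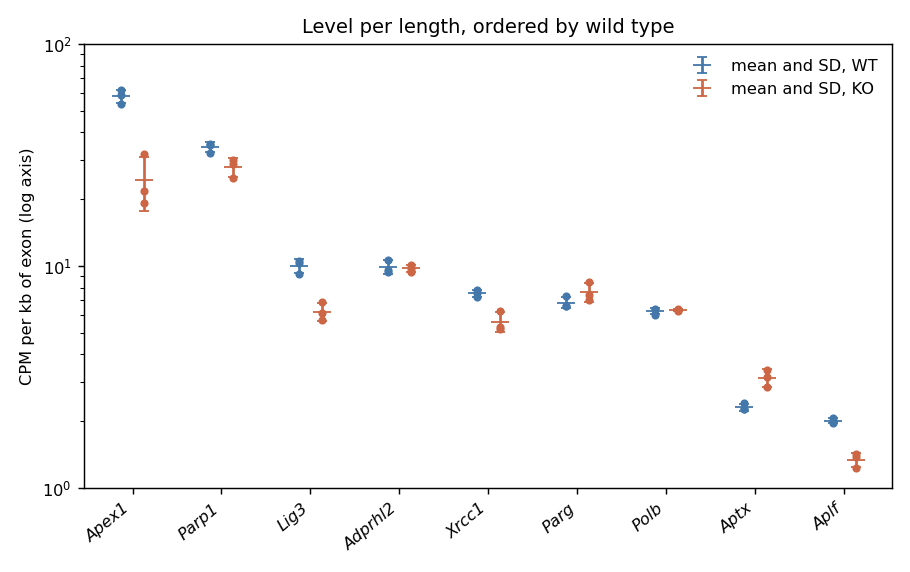
Level in CPM per kilobase of exon (log axis) of the 9 genes in wild type (blue) and knockout (orange), with points for libraries and bars for mean and SD of 3. Apex1 leads Parp1 in wild type, and the pair overlap in knockout.

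How the total RNA of a library is scaled moves every value. The 13 acinar marker genes took 19.7% to 24.8% of wild-type counts and 0.0153% to 12.2% of knockout counts. Their part in the shift between scalings was not tested. Scaled by library totals alone, the median over all tested genes stood at 0.42 on the log2 scale, where TMM gave 0.02, and 4 of the 9 genes were called higher and 2 lower in place of 1 and 5. Apex1 (-0.87) and Lig3 (-0.28) were still called lower and Aptx (0.85) higher. Polb, Parg and Adprhl2 became called as higher, at 0.42, 0.57 and 0.38, and Parp1 turned to 0.11 without a call. Xrcc1 and Aplf lost their calls. Measured from the median of all genes the values hardly moved: Parp1 stood 0.31 below that median under each of the 4 scalings, Xrcc1 0.43 to 0.44 below, and Apex1 1.27 to 1.29 below.

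**Figure D4:**
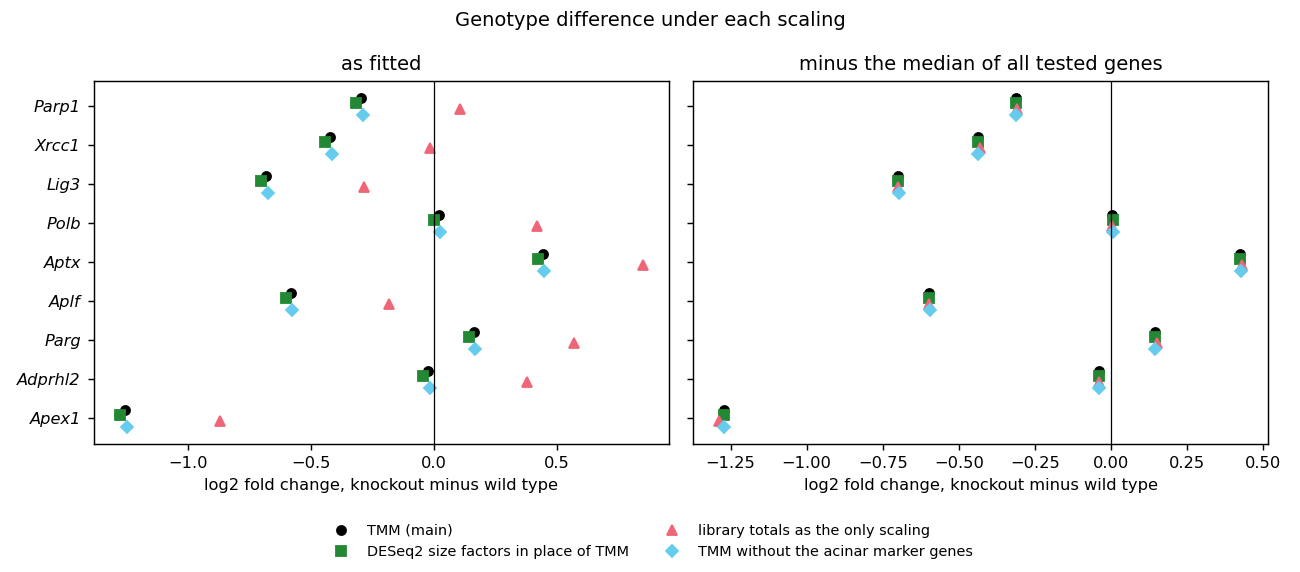
Log2 fold change, knockout minus wild type, of the 9 genes under 4 scalings, as fitted (left) and after subtracting the median of all tested genes (right). Library totals shift all points to the right by about the same amount, and the shift vanishes in the right panel.

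The rest of the pathway was followed in 4 further lists with 39 genes, all tested. Of these 18 fell, 6 rose and 15 did not pass, with a median log2 fold change of -0.43, against 25.0% lower and 28.0% higher among all genes. Parp2 itself is among the 18. With library totals as the only scaling 8 fell and 9 rose.

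Among 11 DNA glycosylase genes 5 fell and 2 rose. Ung, which encodes the enzyme that removes uracil, fell from a mean of 28.9 ± 1.64 to one of 9.99 ± 2.73 CPM (SD, n = 3 each; edgeR adjusted p = 0.00289). Neil3, a glycosylase gene of dividing cells, fell from 17.9 ± 2.34 to 6.49 ± 1.04 CPM. Ogg1, for oxidised guanine, fell by 0.85 on the log2 scale (SE 0.166), and Smug1, a second uracil glycosylase gene, by 0.45 (SE 0.0981). The call of Smug1 ended with acinar level as a term and with library totals (adjusted p = 0.0807 and 0.749). Mbd4, for mismatches at methylated CpG, rose from 10.9 ± 0.972 to 20.2 ± 2.31 CPM, and Neil1, for oxidised bases, from 9.42 ± 2.10 to 17.0 ± 2.33 CPM, a call that ended with acinar level as a term (adjusted p = 0.072).

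Of 4 other genes of end processing and gap filling 3 fell and 1 did not pass. Poll, which encodes polymerase lambda, fell by 0.67 on the log2 scale (SE 0.119). Tdp1 and Tdp2, for ends blocked by topoisomerases, fell by 0.59 and 0.35. With library totals Poll and Tdp1 lost their calls (adjusted p = 0.0852 and 0.25) and Tdp2 turned to 0.05.

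Long-patch repair shares its enzymes with DNA replication, and of its 13 genes 8 fell and 1 rose. The clamp loader genes Rfc4 and Rfc5 fell by 1.47 and 0.92 on the log2 scale, the polymerase delta subunit gene Pold2 by 1.34 and the flap nuclease gene Fen1 by 1.11 (SE 0.156, 0.0898, 0.160 and 0.133). The exception was Pold4, the smallest subunit of polymerase delta, which rose from 8.998 ± 0.836 to 26.5 ± 4.09 CPM (SD, n = 3 each; log2 fold change 1.56, edgeR adjusted p = 0.00201). The 15 proliferation markers, 13 of which fell, had a median log2 fold change of -1.04.

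Of 11 other genes of ADP-ribose and NAD+ metabolism 2 fell and 3 rose. Parp3, the third DNA-dependent member of the family, rose from 39.5 ± 4.35 to 78.2 ± 15.9 CPM (SD, n = 3 each), a log2 difference of 0.98 ± 0.165 (SE; edgeR adjusted p = 0.00501). Nampt, which encodes the rate-limiting enzyme of NAD+ salvage, rose from 91.4 ± 4.46 to 130.2 ± 9.65 CPM. Adprh, for ADP-ribose on arginine, rose by 0.37 (SE 0.090), a call that ended without wild-type replicates 1 or 2 and with acinar level as a term (adjusted p = 0.0534, 0.0578 and 0.0971). Besides Parp2, the ADP-ribose-activated remodeller gene Chd1l fell by 0.43 (SE 0.111), a call lost without wild-type replicate 2 or knockout replicate 1 and with library totals (adjusted p = 0.0641, 0.073 and 0.93).

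**Figure D5:**
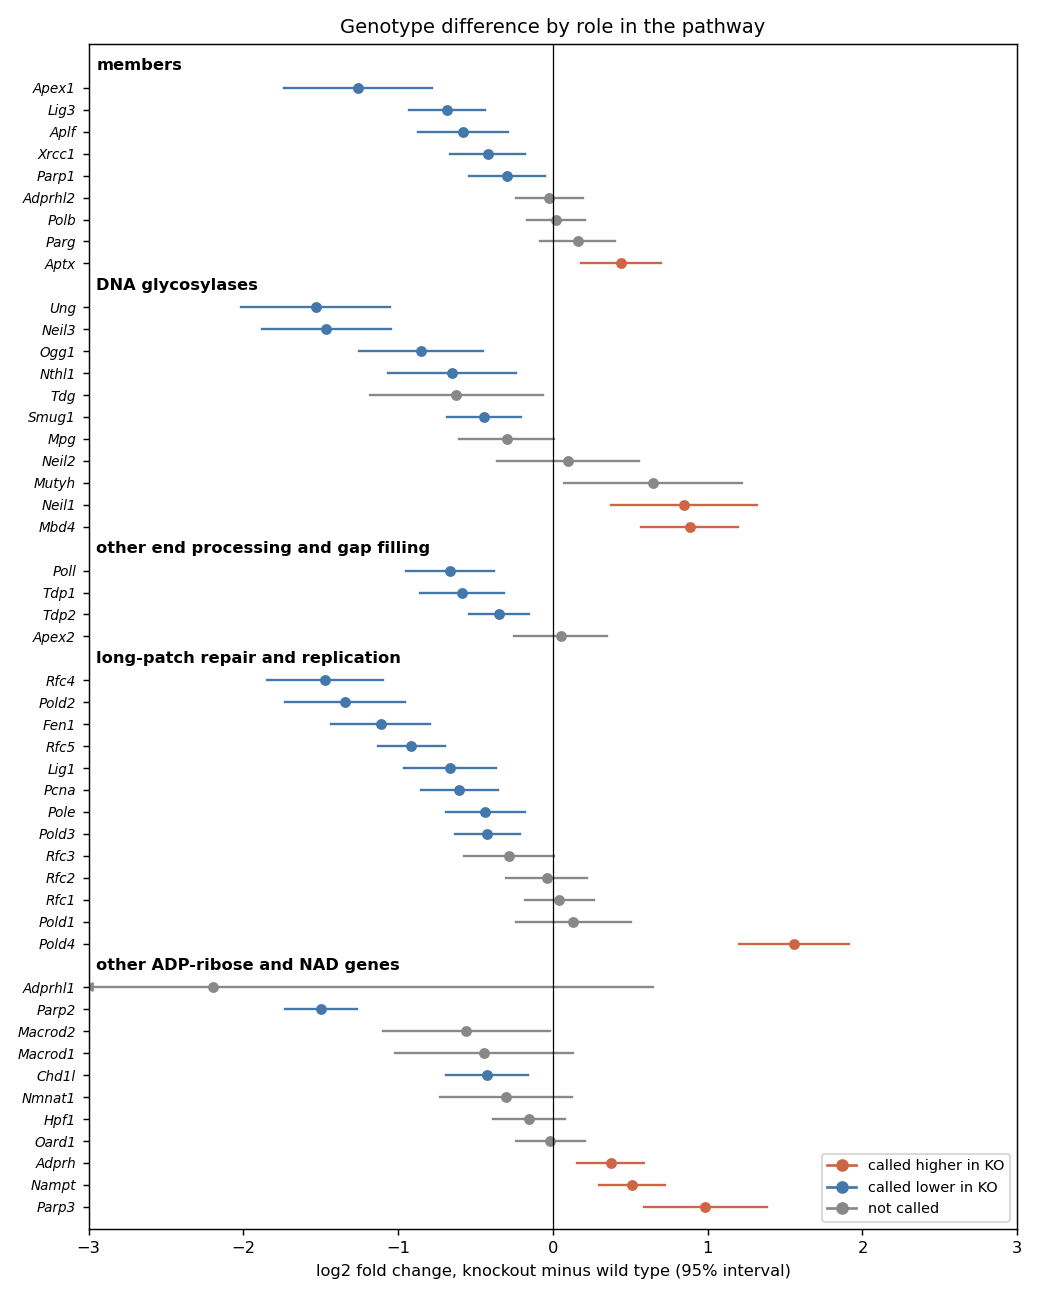
Log2 fold change, knockout minus wild type (x axis), with 95% intervals for the 9 genes and the 39 genes of the other lists, ordered within each list. Blue marks genes called lower, orange genes called higher and grey the rest. The interval of Adprhl1 runs past the left edge (arrowhead).

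For each of the 9 genes the most similar profile among the other 47 listed genes was sought, as the root mean square difference of log2(CPM + 0.5) over the 6 libraries after centring. Parp1 was nearest to Rfc3 (0.05), Lig3 to Poll (0.07), Apex1 to Pold2 (0.07), Aplf to Smug1 (0.07) and Xrcc1 to Chd1l (0.08). Of the genes that were not called, Polb was nearest to Apex2 (0.07), Parg to Rfc1 (0.07) and Adprhl2 to Oard1 (0.05). Aptx was nearest to Nampt but less closely (0.13).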

How the data were processed

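The 9 genes, the gene lists and the tests were chosen with earlier results of these data known. Messenger RNA libraries were stranded, per the labels' protocols. The authors deposited whole-number read counts per gene, not normalised, and a table of log2 values. The submitters' processing notes list STAR 2.5.3a, DESeq2 1.28.1 and FastQC 0.11.5 and the build GRCm38 (mm10), with no role for each. Which program counted the reads, and whether by strand, is not given in the sources used here. The deposited log2 values matched log2(count / DESeq2 size factor + 1) within 5.2e-14.

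Counts of all 6 libraries were fitted by genotype with edgeR 4.0.16 in R 4.3.3 (quasi-likelihood test, robust, TMM scaling, default group-wise filter), with Benjamini-Hochberg adjustment over 17652 genes and 0.05 as the threshold. CPM use TMM-scaled library sizes. Log2 fold changes are signed as knockout minus wild type. SE is the log2 fold change over the root of F, and 95% intervals use the fit's degrees of freedom. p-values measure the spread between animals. Replicates were numbered in accession order. No pair of replicates agreed within sampling noise (chi-square per degree of freedom 29.1 to 461). Named were the 9 genes, Parp2 and up to 4 called genes of smallest p per direction in each other list. Of the genes overlapping a member or starting within 1 kb of it, only Rffl, Osgep, Pip4p1 and Timm23 were named. Timm23 starts 51 bp from the start of Parg, on the opposite strand. Exon lengths and overlaps came from GENCODE vM21, and promoters from RefSeq (GRCm38.p6). Alternatives were DESeq2 size factors, library totals, TMM without acinar markers, no count filter, the DESeq2 1.42.0 Wald test, limma 3.58.1 (voom, and on the deposited log2 values), sex (from Xist and Y-linked transcripts) or acinar level as a term, 0.01 as the threshold, and leaving out each library. The 5 ratios, with each library left out, were chosen after seeing the data. The fit was tested on simulated data. A gene of the other pathway lists is not reported here, and counts over those lists leave it out.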

Additional observations from a re-analysis of the deposited data

How the results depend on the processing

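Of the 9 genes, Apex1 and Lig3 kept their direction and call under all 15 alternatives that used the 0.05 threshold, and Xrcc1, Aptx and Aplf under 13 each. Parp1 kept its call under 6, and its log2 fold change turned to 0.11 with library totals as the only scaling. The cause was not tested; the median of all genes stood at 0.42 there. The number of the 9 genes called, 6 in the main analysis, was 3 with acinar level as a term and 3 at a threshold of 0.01 (Apex1, Lig3 and Aplf), and 4 to 6 with each library left out. Of all tested genes 9353 were called, against 5853 with acinar level as a term, 4869 at 0.01, and 6145 (without knockout replicate 1) to 10157 with each library left out. With library totals 77.6% of calls over all genes were higher in knockout, against 52.8%. Other pathway genes called numbered 24, and 21 to 28 with each library left out. Also with library totals, Adprhl2, Tdp2, Osgep and Timm23 changed sign, to 0.38, 0.053, 0.37 and 0.07. With each library left out, genes near 0 changed sign too: Polb ran from -0.014 to 0.034, Adprhl2 from -0.068 to 0.026, Osgep from -0.064 to 0.007 and Rffl from -0.086 to 0.106. The 5 ratios kept their direction, and that of Xrcc1 to Lig3 moved most for its size, from 0.26 to 0.11, without knockout replicate 3. No paired analysis was possible because replicate numbers follow accession order and pair no animals. Sex was 2 males and 1 female in wild type and 1 male and 2 females in knockout. With sex as a term 5 of the 9 genes were called.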

Other observations

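Some listed genes had groups that did not overlap and yet missed the threshold. That is common in these data, as 68.1% of all tested genes did not overlap and 53.0% were called. The glycosylase gene Tdg, which acts on thymine and on oxidised methylcytosine opposite guanine, gave 5.67, 4.81 and 4.38 CPM in the wild-type libraries and 3.62, 2.46 and 3.55 CPM in the knockout ones (edgeR adjusted p = 0.0601). Mutyh, for adenine opposite oxidised guanine, had 3.33, 3.22 and 3.62 CPM against 5.54, 3.88 and 6.50 CPM (edgeR adjusted p = 0.0589). Both were chosen after their values were seen.

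Adprhl1, a relative of Adprhl2 best known from heart muscle and also chosen after its values were seen, had the largest SD relative to its mean within the knockout among the 39 genes of the other lists, 138%. Wild-type libraries held 7.75, 6.40 and 10.6 CPM and knockout libraries 0.649, 4.70 and 0.103 CPM in replicates 1, 2 and 3 (log2 difference -2.20 ± 1.16, SE; edgeR adjusted p = 0.154). The acinar share of counts in those 3 knockout libraries was 3.49%, 12.2% and 0.0153%, in the same order of size. In wild-type replicates 1, 2 and 3 that share was 23.1%, 24.8% and 19.7%, in the reverse order of size to Adprhl1. A link between the acinar share and Adprhl1 was not tested. Adprhl2 had 23.4, 25.1 and 24.0 CPM in the knockout libraries.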
